A study of Mus musculus with 12 samples.

Results

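The baseline transcriptome of the mouse retina at the embryonic stage labelled E15.5 was described from 6 wildtype libraries, chosen by the genotype label out of 12 libraries in the series. RNA-seq was performed on whole retina, and each library came from a pool of 12 retinas collected from several litters, of embryos labelled as wild type on the C57BL/6 strain. Males gave 3 pools and females gave 3 pools, and both sexes are numbered 4, 5 and 6 in the labels. The other 6 libraries came from retinas with floxed Tbr2 and the Six3-Cre transgene and enter no value below except 1 alternative fit. Since each library is a pool, the spread given here is that between pools and not between embryos, and p-values measure only that spread.

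The embryonic retina is built from multipotent progenitors that divide in the neuroblastic layer and leave the cell cycle to become neurons in an order shared by vertebrates. Retinal ganglion cells, horizontal cells, cone photoreceptors and early amacrine cells are born first, while most rods, bipolar cells and Müller glia are born after the stage sampled here. The bHLH factor Atoh7 makes progenitors competent to become ganglion cells, and the POU factor Pou4f2 acts downstream of it in ganglion cells leaving the cycle.

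Read counts per wildtype pool ranged from 19237301 to 27072825, and 18087 to 18496 genes had at least 1 read in a pool. The table of all libraries listed 19954 genes, of which 19582 had a read in the wildtype pools, and each listed gene had a read in at least 1 female library. Genes read in males alone, such as those on the Y chromosome, are therefore outside that table. Pairwise Pearson correlations of the pools, taken across genes, lay between 0.982 and 0.991, and genes are not independent replicates. The pools nevertheless fell into sets. Male pool 5, female pool 4 and female pool 6 held 419, 381 and 373 CPM (counts scaled to a common library total) of mt-Nd6, a mitochondrially encoded subunit of respiratory complex I. Male pool 4, male pool 6 and female pool 5 held 21.3, 9.70 and 48.4 CPM. The first principal component of log2 CPM, with 37.2% of the variance, put the 3 former pools between 17.5 and 21.7 and the 3 latter between -28.4 and -7.25. Male pool 5 also stood apart by its lens transcripts, given with that tissue below.

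The most abundant transcripts of the wildtype retina were those of translation, the cytoskeleton and mitochondria. The neurogenic factor Atoh7 and Gapdh of glycolysis stood among the highest 25 with the listed gene lengths, but at ranks 87 and 54 with the longer lengths of GENCODE M21, as described below. FPKM values, that is fragments scaled by gene length and by the library total, were used for levels between genes. Eef1a1, the elongation factor that delivers aminoacyl-tRNA to the ribosome, ranked highest at 6055 ± 183 FPKM (SD, n = 6 pools, as for the other levels below). At least 1 FPKM in all 6 pools was reached by 11957 genes, at least 10 FPKM by 6236, at least 100 FPKM by 503 and at least 1000 FPKM by 26. The 25 genes with the highest mean FPKM took between 6.09% and 6.36% of the reads of a pool, and the highest 100 took between 13.1% and 13.6%.

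**Figure D1:**
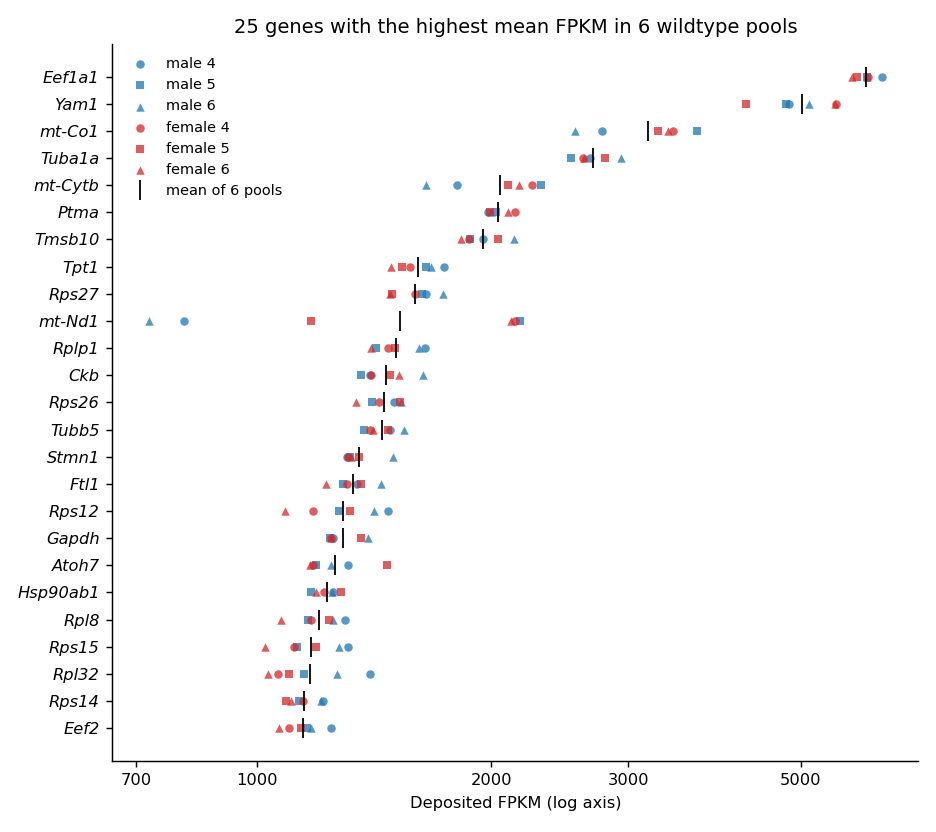
FPKM (log axis) of the 25 genes with the highest mean over the 6 wildtype pools, one symbol per pool, blue for male and red for female, with a bar at the mean. The pools lie close together for most genes, from Eef1a1 at 6055 FPKM down to Eef2 at 1148, while mt-Nd1 spreads from 727 to 2178.

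Genes of translation made up the largest family at the top. Ribosomal protein genes, 82 in number, held 8 of the 25 highest places and 52 of the highest 100 with the listed gene lengths. They took 4.30% to 5.28% of reads. Rps27, Rps26, Rps12, Rpl32 and Rps14 left the highest 25 with the lengths of GENCODE M21, as given below. Rps27 reached 1598 ± 98.1 FPKM, Rplp1 1511 ± 101 and Rps26 1457 ± 75.6. Rps12, Rpl8, Rps15, Rpl32 and Rps14 lay between 1151 and 1292 FPKM. Among other listed genes related to translation, Tpt1 reached 1611 ± 93.6 FPKM and the elongation factor Eef2, which moves the ribosome along the message, 1148 ± 62.5.

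Tubulins and actin-binding peptides were also high, and their levels in whole tissue do not tell neurons from dividing cells. Tuba1a, the α-tubulin of postmitotic neurons, stood at 2702 ± 144 FPKM. Tmsb10, which sequesters actin monomers, stood at 1953 ± 120 FPKM. Tubb5 and Stmn1, a tubulin and a tubulin-binding protein of dividing and migrating cells, stood at 1448 ± 64.7 and 1352 ± 73.9 FPKM. Stmn1 was highest in male pool 6, at 1499 FPKM, and the next pool held 1354. All 20 listed genes of neuronal cytoskeleton and growth passed 1 FPKM in every pool, and together they took 1.95% to 2.08% of reads.

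Other genes in the highest 25 serve energy supply, iron storage and protein folding. Gapdh of glycolysis stood at 1289 ± 67.2 FPKM, and Ckb, the brain-type creatine kinase that buffers ATP, at 1468 ± 101. Ftl1, the light chain of ferritin, stood at 1329 ± 72.6 FPKM. Ptma, prothymosin alpha, and Hsp90ab1, a chaperone, stood at 2042 ± 67.0 and 1230 ± 41.7 FPKM. Pkm, Eno1 and Ldha, which act further down glycolysis, reached 715 ± 15.6, 702 ± 29.9 and 439 ± 31.1 FPKM. The 17 listed genes of glycolysis and hypoxia took 0.755% to 0.837% of reads, and 15 of them passed 1 FPKM in every pool.

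Mitochondrially encoded genes held 3 of the 25 highest places and between 0.838% and 1.47% of reads. mt-Co1, a cytochrome c oxidase subunit, reached 3181 ± 422 FPKM, and mt-Cytb reached 2052 ± 265. The FPKM of mt-Nd1 was 806, 2178 and 727 in male pools 4, 5 and 6 and 2146, 1176 and 2121 in female pools 4, 5 and 6. It was thus higher in each of the 3 pools rich in mt-Nd6 than in each of the others. mt-Co2, mt-Co3 and mt-Atp6 were listed at 17.2, 15.7 and 11.4 FPKM, although these genes lie on the same precursor transcript as mt-Co1. Nuclear copies of mitochondrial sequence can share reads with these genes, so their levels are uncertain.

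Yam1, an annotated lincRNA on chromosome 17 from 39846958 to 39848788 (mm10), ranked second at 5011 ± 497 FPKM. In RefSeq it overlaps by 1245 bases with Rn18s-rs5, a pseudogene related to 18S ribosomal RNA, so its reads and those of ribosomal RNA cannot be told apart here. Yam1 took 0.778% to 1.02% of reads, with the lowest share in female pool 5.

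Retina-restricted genes entered the upper ranks with Atoh7. Its FPKM was 1312, 1191 and 1245 in male pools 4, 5 and 6 and 1181, 1469 and 1172 in female pools 4, 5 and 6. The mean of 1262 ± 114 FPKM gave it rank 19. Female pool 5 was the highest, and each of the 3 pools rich in mt-Nd6 lay below each of the other 3. The rank rests on gene length: the deposited table lists 450 bases for Atoh7, on chromosome 10 from 63100156 to 63100605, which is shorter than the 1629 exonic bases of GENCODE M21. With the longer length its level was 349 FPKM and its rank 87. Over the 11909 genes at 1 FPKM or more in all pools with an M21 length, that length was a median of 1.32 times the listed one, and it was over 2 times as long for 2009 genes. Rps27, Rps26, Rps12, Rpl32, Gapdh and Rps14 fell in the same way, to ranks 74, 60, 101, 34, 54 and 93. Levels of single genes are therefore compared below only in coarse terms.

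Cell classes of the retina were read from marker lists, and their members are ordered from progenitors to late-born cells. In RNA from whole tissue, fewer cells of a class and less RNA per cell cannot be told apart. Progenitor, precursor and ganglion cell markers were the most abundant of the retinal classes, amacrine, horizontal and photoreceptor markers were present at lower levels, and Sag, Grm6 and Vsx1, genes of mature rods and bipolar cells, were close to 0. The median marker level was 93.4 FPKM for progenitors, 55.5 for neurogenic precursors and 38.6 for ganglion cells. It was 6.06 FPKM for amacrine cells, 5.80 for horizontal cells, 3.13 for photoreceptor precursors and 0.942 for bipolar cells. The Müller glia list had a median of 15.9 FPKM, with 9 of 11 members above 1 FPKM in every pool, and its leading genes are also expressed by progenitors. Lists differ in size and in the genes picked, so these medians describe the lists and not the share of cells.

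**Figure D2:**
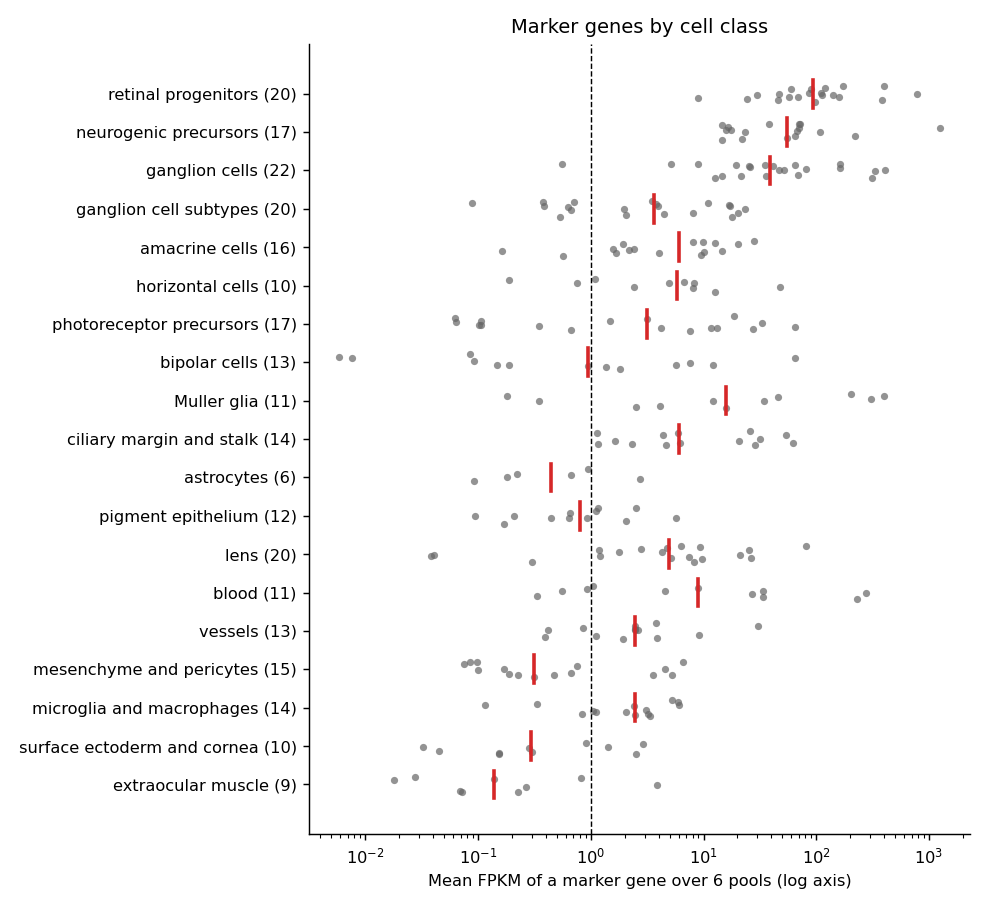
Mean FPKM over the 6 wildtype pools (log axis) of each marker gene, one point per gene, by cell class, with the number of listed markers in parentheses, a red bar at the median of the class and a dashed line at 1 FPKM. Medians fall from 93.4 FPKM for retinal progenitors to 0.140 for extraocular muscle, and 1 lens gene with a mean of 0 is not drawn.

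All 20 progenitor markers passed 1 FPKM in every pool, and their summed level was 2990 ± 93.5 FPKM, from 2891 to 3162. Ccnd1, the cyclin that drives retinal progenitors through the first gap phase, led the list. Its FPKM was 761, 758 and 806 in the male pools 4, 5 and 6 and 784, 741 and 827 in the female pools. The sexes overlapped, and the mean was 780 ± 32.5 FPKM. Fgf15, a growth factor of the neural retina, reached 397 ± 16.4 FPKM.

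Sfrp2, a secreted modulator of Wnt signalling, varied more than Ccnd1 and Fgf15. It held 395, 342 and 343 FPKM in male pools 4, 5 and 6 and 422, 517 and 298 in female pools 4, 5 and 6. The highest and lowest values were both in female pools. The eye field factors kept narrower ranges. Pax6, the factor that holds progenitors multipotent, ranged from 128 to 146 FPKM, and Six3 from 104 to 120. Lhx2 held 98.6, 95.7 and 98.2 FPKM in male pools 4, 5 and 6 and 94.4, 96.7 and 96.0 in the female pools. It was the third most even gene of all those at 50 CPM or more, with a spread no larger than counting error gives. The Notch effectors Hes1 and Hes5 reached 86.0 ± 4.67 and 46.9 ± 3.56 FPKM, and the receptor Notch1 29.5 ± 2.82.

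All 24 proliferation genes passed 1 FPKM in every pool. Pcna, the sliding clamp of DNA polymerase, led with 197 ± 13.1 FPKM, followed by Top2a with 134 ± 9.70. Cdkn1c, an inhibitor of cyclin-dependent kinases that marks cells leaving the cycle, stood at 115 ± 7.97 FPKM. Mki67, present in cycling cells, stood at 49.2 ± 3.50 FPKM.

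All 17 markers of neurogenic precursors, the cells on their way out of division, passed 1 FPKM in every pool. Their sum was 2153 ± 122 FPKM, of which Atoh7 made up the largest part, 1262 FPKM with its listed length and 349 with that of GENCODE M21, so the sum rests on the length used for that gene. Hes6, which antagonises Hes1, followed with 221 ± 23.3 FPKM. Neurog2, a proneural factor of cells about to leave the cycle, ranged from 98.4 to 116 FPKM. Foxn4, a factor for amacrine and horizontal fates, reached 70.0 ± 5.05 FPKM. The Notch ligands Dll3, Dll1 and Dll4 lay at 22.1 ± 2.39, 17.4 ± 0.818 and 16.6 ± 1.02 FPKM. Neurod4 departed from this evenness, with 16.3, 32.1 and 14.4 FPKM in male pools 4, 5 and 6 and 27.9, 16.1 and 33.3 in female pools 4, 5 and 6. Its 3 high pools were the 3 rich in mt-Nd6.

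Of 22 ganglion cell markers, 21 passed 1 FPKM in every pool, with a sum of 1936 ± 44.2 FPKM. Gap43, a growth cone protein, ranged from 382 to 438 FPKM and Stmn2, which regulates microtubules in axons, 330 ± 9.37. Sncg, γ-synuclein, reached 314 ± 24.7 FPKM and the neurofilament gene Nefm 164 ± 12.1. Gap43, Stmn2 and Nefm are also made by other neurons, so the defining transcription factors were read separately. Pou4f2 held 43.1, 51.1 and 43.0 FPKM in male pools 4, 5 and 6 and 48.5, 46.8 and 45.3 in female pools 4, 5 and 6. Isl1, its partner, stood at 64.6 ± 2.04 FPKM, Pou4f1 at 25.6 ± 3.34 and Pou4f3 at 5.19 ± 0.944. Rbpms, an RNA-binding protein used to count adult ganglion cells, stood at 34.9 ± 1.73 FPKM. Thy1, the surface antigen used to purify postnatal ganglion cells, was the marker below 1 FPKM, at 0.338 to 0.979. Elavl4 ranged from 34.2 to 66.9 FPKM and was higher in each pool rich in mt-Nd6 than in each of the others.

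Markers of ganglion cell subtypes were lower. Of 20 in the table, 13 passed 1 FPKM in every pool, and the median member stood at 3.62 FPKM. Zic1 led with 23.4 ± 2.10 FPKM, then Satb1 with 20.4 ± 0.965 and Foxp1 with values from 15.6 to 19.5. Eomes, which encodes Tbr2 and is needed for the intrinsically photosensitive ganglion cells, was measured at 56.8, 76.1 and 65.5 CPM in male pools 4, 5 and 6. The female pools 4, 5 and 6 held 53.8, 53.4 and 64.6 CPM, a range that overlaps with the males. The overall mean was 17.3 ± 2.46 FPKM. Opn4, the melanopsin gene of those cells, stood at 0.556 to 0.847 FPKM. Tbr1 and Cartpt, markers of other subtypes, stood at 0.0876 ± 0.0380 and 0.633 ± 0.487 FPKM.

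Among 16 amacrine markers in the table, 13 passed 1 FPKM in every pool. Prdm13, a factor of inhibitory amacrine cells, led with 28.0 ± 2.85 FPKM, followed by Calb2 with 20.1 ± 1.79, Barhl2 with 14.4 ± 1.88 and Tfap2b with 12.5 ± 1.95. Ptf1a, the factor that commits precursors to amacrine and horizontal fates, stood at 2.17 ± 0.288 FPKM. Gad2 and Gad1 both encode enzymes that make GABA, and stood at 10.2 ± 1.47 and 0.162 ± 0.0311 FPKM.

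Horizontal cell markers were fewer, with 7 of 10 above 1 FPKM in every pool. Ppp1r1a led with 47.8 ± 4.42 FPKM. Onecut2 and Onecut1, factors of early-born horizontal cells, cones and ganglion cells, reached 8.19 ± 1.72 and 8.02 ± 0.752 FPKM. Prox1 stood at 6.69 ± 1.11 FPKM, Lhx1, the most specific factor of the class, at 0.759 ± 0.158, and Calb1 at 0.190 ± 0.0640.

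Photoreceptor precursors were represented by transcription factors and the first cone genes. Of 17 markers in the table, 10 passed 1 FPKM in every pool. Otx2, which starts the photoreceptor fate, stood at 65.2 ± 4.04 FPKM, its target Crx at 32.7 ± 2.73, and Prdm1, which keeps Otx2-positive cells from the bipolar fate, at 18.7 ± 1.86. Neurod1 held 18.1, 35.6 and 19.8 FPKM in male pools 4, 5 and 6 and 33.1, 18.5 and 39.1 in female pools 4, 5 and 6, again with the 3 pools rich in mt-Nd6 on top. Thrb and Rxrg, the nuclear receptors of cones, ranged from 12.4 to 14.6 and from 10.2 to 13.2 FPKM. The cone transducin genes Gngt2 and Gnat2 stood at 7.56 ± 1.22 and 3.13 ± 0.698 FPKM. Nrl, the rod factor, stood at 1.49 ± 0.237 FPKM. Sag, the rod arrestin, stood at 0.0634 ± 0.0281 FPKM.

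Late-born classes share many markers with progenitors and early neurons, so their mature genes were read separately. Of 13 bipolar markers, 6 passed 1 FPKM in every pool, and Isl1, which ganglion cells also make, gave 64.6 of the summed 94.7 FPKM. Grm6 and Vsx1, which mark bipolar cells themselves, stood at 0.00769 ± 0.0188 and 0.0920 ± 0.0351 FPKM. The Müller glia list summed to 1026 ± 20.2 FPKM through Dkk3, Vim and Glul, at 402 ± 14.0, 305 ± 17.3 and 203 ± 6.27 FPKM, genes that progenitors also express. Rlbp1, Kcnj10 and Aqp4, genes of mature glia, stood at 2.53 ± 0.538, 0.351 ± 0.0819 and 0.181 ± 0.0965 FPKM. These lay below the list's median of 15.9 FPKM, and 9 of its 11 members passed 1 FPKM in every pool. Gfap, the filament of astrocytes, stood at 0.221 ± 0.0868 FPKM.

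Ciliary margin, ventral retina and optic stalk were represented by 12 of 14 markers above 1 FPKM in every pool. Zic2 and Vax2, factors of ventral retina, stood at 62.6 ± 2.95 and 54.2 ± 4.96 FPKM. Cdon and Gja1 followed with 31.5 ± 1.71 and 28.8 ± 2.12 FPKM. Pax2, the factor of the optic stalk, stood at 2.30 ± 0.451 FPKM and Otx1, of the peripheral margin, at 4.38 ± 0.449.

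Cells from outside the neural retina were read from the same kind of list. Blood had the highest mean, with a sum of 618 ± 139 FPKM and values from 473 to 877. In male pool 5 lens markers were higher, at 831 FPKM against 606 for blood. Hbb-bs and Hba-a1, adult globins, led with 278 ± 82.0 and 230 ± 68.2 FPKM, and female pool 6 was highest for both. Hbb-y, an embryonic β-like globin, ranged from 11.2 CPM in male pool 5 to 35.2 CPM in female pool 4. Globin genes are near-identical copies, so the split of reads among them is uncertain. Vessel markers summed to 61.9 ± 3.78 FPKM, led by Kdr, the VEGF receptor, at 30.5 ± 1.72, which retinal progenitors can also express. Cdh5 and Pecam1, found in endothelium, stood at 3.87 ± 0.664 and 2.63 ± 0.482 FPKM. Microglia markers summed to 37.3 ± 2.95 FPKM, with C1qb at 6.01 ± 0.596 and Cx3cr1 at 3.24 ± 0.339. Pigment epithelium summed to 15.7 ± 2.62 FPKM, with Pmel at 5.67 ± 1.45 and Tyr at 0.643 ± 0.139. Muscle and surface ectoderm summed to 5.49 ± 0.648 and 8.68 ± 0.973 FPKM.

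Of the cell class lists, lens differed most between pools. Its summed level was 54.7, 831 and 9.92 FPKM in male pools 4, 5 and 6 and 223, 173 and 10.5 FPKM in female pools 4, 5 and 6. Male pool 5 was thus 83.8 times as high as male pool 6, and without male pool 5 the mean fell from 217 to 94.2 FPKM. Of the 15 lens genes with a mean of at least 1 CPM, all 15 were highest in male pool 5, and their folds between the highest and the lowest pool ran from 2.66 to 367. Cryaa, the αA-crystallin chaperone of the lens, still had 1.91 and 1.43 FPKM in male pool 6 and female pool 6. Cryba2 had 0 and 2 reads in the same pools. Of 20 lens genes in the table, 3 passed 1 FPKM in every pool. Markers of other tissues that lie beside the retina varied less. Pigment epithelium summed to 18.8, 17.7 and 16.8 FPKM in male pools 4, 5 and 6 and 14.6, 11.5 and 14.7 in the female pools. Surface ectoderm summed to 8.71, 8.30 and 7.72 FPKM in the male pools and 7.86, 10.3 and 9.15 in the female pools. Mesenchyme and pericytes summed to 24.7, 24.8 and 20.4 FPKM in the male pools and 23.7, 22.2 and 22.7 in the female pools, with the highest and lowest values in the same pools as lens.

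Crystallin promoters picked by hand are shown, and their part in the differences between pools was not tested. They come from RefSeq on GRCm38.p6, 5′ to 3′ on the strand of the gene, with capitals at TGCTGAC, the core bound by MAF factors, and at TATATA or TATAAA, forms of the TATA box. The windows are chr17:31677811-31677940 on the plus strand for Cryaa, chr11:77725284-77725363 on the minus strand for Cryba1 and chr5:112255724-112255829 on the plus strand for Crybb1. Those of Crygd and Cryge are chr1:65063431-65063500 and chr1:65051154-65051223, both on the minus strand.
Cryaa: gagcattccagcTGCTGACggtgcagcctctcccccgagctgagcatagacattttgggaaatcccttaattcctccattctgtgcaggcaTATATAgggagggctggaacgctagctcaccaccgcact
Cryba1: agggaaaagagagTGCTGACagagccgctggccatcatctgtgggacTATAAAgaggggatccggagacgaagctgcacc
Crybb1: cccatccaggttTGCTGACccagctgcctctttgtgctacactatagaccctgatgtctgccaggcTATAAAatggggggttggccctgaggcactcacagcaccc
Crygd: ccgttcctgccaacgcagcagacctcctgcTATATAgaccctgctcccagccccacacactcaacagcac
Cryge: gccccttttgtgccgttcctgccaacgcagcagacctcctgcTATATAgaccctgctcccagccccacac

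The MAF core began 108 bases before the annotated start in Cryaa, 57 in Cryba1 and 84 in Crybb1. Searched on both strands of the RefSeq promoter windows, which run from 250 bases before to 50 after a start, TGCTGAC was in 4 of 12 crystallin promoters and in 4.58% of 27025 promoters. TATATA was in 5 of 12 and in 5.94% of all, and TATAAA in 4 of 12 and in 14.2% of all. The matches describe letters in these windows and not bound sites. Crygd and Cryge share a run of 78 bases around their starts, and reads of such near-identical genes are uncertain in their assignment. Crygd held 0.676, 19.8 and 0.210 CPM in male pools 4, 5 and 6 and 4.32, 6.00 and 0.150 in female pools 4, 5 and 6.

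Most genes differed little between the wildtype pools, and the exceptions included Xist, lens genes, mitochondrial transcripts, zinc finger genes, globins and Cacna1i beside other genes. Variation was measured as the SD over the 6 pools of log2 CPM, with TMM scaling and a prior count of 2, in 11360 genes with a mean of at least 5 CPM. The median SD was 0.12, the 90th percentile 0.26 and the 99th percentile 0.55. The counting error alone gives a median of 0.047. A gene's highest pool was a median of 1.23 times its lowest, and 276 genes (2.43%) differed by more than 2-fold. More than 4-fold was reached by 42 genes and more than 10-fold by 18.

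Among the 25 most variable genes, 10 were lens markers and 6 were pseudogenes. Xist, the RNA that silences an X chromosome, led with an SD of 7.14 and separated the sexes. Cryaa held 25.1, 355 and 2.27 CPM in male pools 4, 5 and 6 and 116, 82.6 and 1.70 in female pools 4, 5 and 6. Cryba1, a β-crystallin, held 8.21, 147 and 0.965 CPM in the male pools and 33.3, 19.1 and 1.55 in the female pools. Crybb1 kept the same order, with 6.29, 95.8 and 1.22 CPM in the male pools and 20.9, 13.6 and 1.65 in the female pools. Capn3, a calpain protease outside the lens list, shared the high value of male pool 5, with 36.8 CPM against 2.60 to 10.5 in the other pools.

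**Figure D3:**
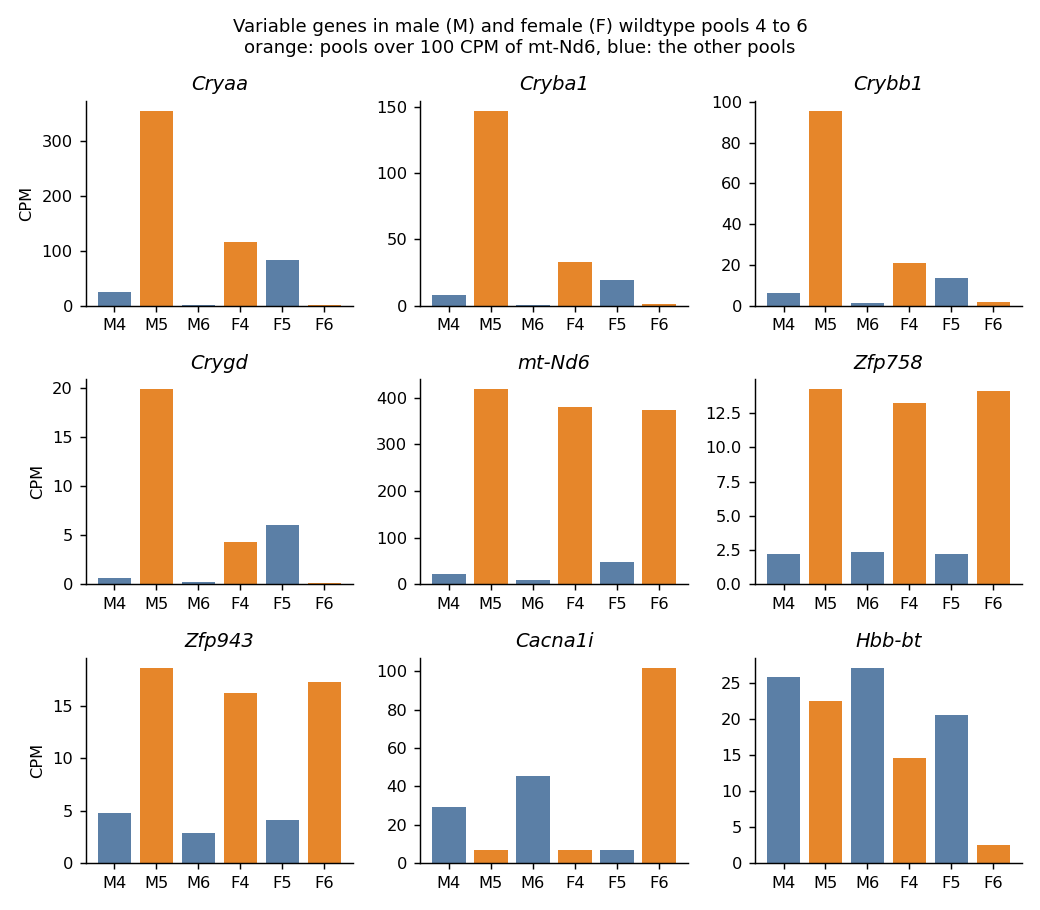
CPM (linear axes from 0) of 9 of the most variable genes in male (M) and female (F) wildtype pools 4 to 6, in orange for the 3 pools over 100 CPM of mt-Nd6 and in blue for the others. Crystallin genes peak in male pool 5, the Zfp genes follow mt-Nd6, and Cacna1i and Hbb-bt follow neither.

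Cacna1i, a T-type calcium channel subunit, followed another order. It held 29.0, 6.56 and 45.2 CPM in male pools 4, 5 and 6 and 6.91, 6.96 and 102 in female pools 4, 5 and 6. Its 3 high pools were of both sexes, and of them female pool 6 alone was rich in mt-Nd6. Hbb-bt, an adult β-globin gene, held 25.7, 22.4 and 27.1 CPM in the male pools and 14.6, 20.6 and 2.45 in the female pools, with female pool 6 far below the rest. That pool was the highest for Hbb-bs, its near-identical neighbour.

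The separation of pools by mt-Nd6 ran through much of the transcriptome. In 4783 of 15092 tested genes (31.7%), the 3 pools above 100 CPM of mt-Nd6 did not overlap with the other 3, with 2046 genes higher and 2737 lower. Overlap was scored on CPM without TMM scaling. TMM factors were 0.972 to 0.994 in the pools rich in mt-Nd6 and 1.007 to 1.022 in the others. Genes that are even after TMM scaling could thus be counted as lower, as Lhx2 and Rrn3 were. The part of scaling in these counts was not tested. Of the 276 genes over 2-fold, 176 (63.8%) were split by set without overlap, and 163 of those were higher in the pools rich in mt-Nd6. Zinc finger genes named Zfp accounted for 32 of the 276, and 29 of the 32 were higher in those pools. On chromosome 17 lay 11 of the 32, against 36 of 294 protein-coding Zfp genes at 5 CPM or more. Zfp758 held 2.24, 14.3 and 2.35 CPM in male pools 4, 5 and 6 and 13.3, 2.18 and 14.1 in female pools 4, 5 and 6. Zfp943 held 4.78, 18.6 and 2.90 CPM in the male pools and 16.2, 4.12 and 17.3 in the female pools. Of 12 mitochondrial transcripts, 11 were higher in all pools of that set, and 1 of these is mt-Nd6 itself, which defines the sets. Within each set of 3 pools, 47 genes differed by more than 2-fold. A range over 3 pools tends to be smaller than one over 6, so this count and the 276 are not alike.

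Genes that divided the pools in this way differed in base composition and in length. The GC content of the longest GENCODE M21 transcript had a median of 49.6% over 11061 protein-coding genes at 5 CPM or more. It was 41.9% (quartiles 39.8% and 44.1%) in those higher in the pools rich in mt-Nd6 and 53.9% (50.4% and 57.3%) in those lower. The 152 protein-coding genes that were also over 2-fold had a median of 37.9%. The median transcript length was 3646 bases over all, 4672 in the genes higher and 2897 in the genes lower in the pools rich in mt-Nd6, and 4244 in the 152. When genes were ordered by GC content and cut into 10 equal classes, the lowest class held 150 genes over 2-fold (13.2%), and each other class between 9 and 19. With a GC trend removed from each library, 153 genes were over 2-fold in place of 276, 12 of them Zfp genes. Of the 153, 136 were also among the 276. All 10 lens genes remained. GC content and transcript length thus both moved with the sets, and the part of either in the levels of single genes was not tested.

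**Figure D4:**
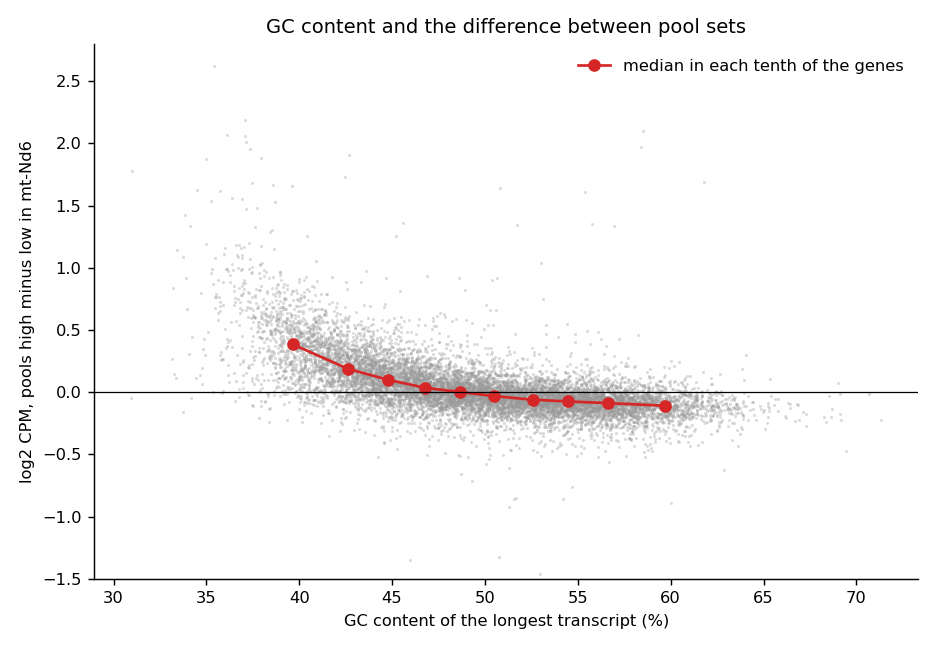
Difference in mean log2 CPM between the 3 pools above and the 3 pools below 100 CPM of mt-Nd6, against the GC content (%) of a gene's longest transcript, one grey point per gene, with red points at the median of 10 equal classes; 11318 genes are drawn and 6 lie outside the axis. The class median falls from 0.38 at the lowest GC content to -0.11 at the highest.

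Some retinal genes were among those split by set. Neurod4, Neurod1 and Elavl4, described above, have transcripts of 38.0%, 43.6% and 38.9% GC. Ccne2, a cyclin of DNA synthesis, held 5.31, 8.82 and 4.33 FPKM in male pools 4, 5 and 6 and 11.7, 6.34 and 9.14 in female pools 4, 5 and 6, with 36.3% GC. Of the 20 progenitor markers, 10 were split, 4 higher and 6 lower in the pools rich in mt-Nd6, beside 31.7% of all genes tested. These splits are also scored on CPM without TMM scaling, and Lhx2, an even gene after that scaling, is among those lower. Of the tested markers, 4 of 17 were split for neurogenic precursors, 6 of 22 for ganglion cells, 3 of 19 for their subtypes and 0 of 16 for amacrine cells. For the later lists, 2 of 10 horizontal, 3 of 12 photoreceptor, 1 of 7 bipolar and 3 of 11 Müller glia markers were split. Ciliary margin and stalk markers were split in 5 of 14. Progenitors lay above the share over all genes and amacrine cells below it. In lists this small a few genes set the share, and differences between lists were not tested.

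The most even genes among 5079 with a mean of at least 50 CPM were Rrn3, Ddx17, Lhx2, Ddb1, Vangl2, Hdac3, Eif4g3, Clip3, Fkbp1a and Tle3. Their SDs of log2 CPM ran from 0.007 for Rrn3, a factor of RNA polymerase I, to 0.018 for Tle3, a corepressor. Lhx2, the eye field factor, held 280, 272 and 279 CPM in male pools 4, 5 and 6 and 268, 275 and 273 in the female pools. Its SD of 0.016 was below the counting SD of 0.018 at its depth. Rrn3, Vangl2, Hdac3, Eif4g3, Clip3 and Tle3 also lay below their counting SDs, while Ddx17, Ddb1 and Fkbp1a did not. The order among these even genes thus cannot be told apart from counting error.

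The labelled contrast within the wildtype retina is that of sex. Female pools were higher in Xist and in Eif2s3x, an X-linked translation factor gene that escapes silencing, and both genes that passed the test are X-linked. Over 15092 genes tested with edgeR and adjusted after Benjamini and Hochberg, 2 were called (0.0133%), and 699 had an unadjusted p under 0.05. Xist held 7, 4 and 0 reads in male pools 4, 5 and 6 and 51406, 30134 and 34622 in female pools 4, 5 and 6. The sexes were fully separate, with a log2 difference of 13.35 ± 0.31 (SE) and an adjusted p of 3.02e-07 by edgeR. The size of the difference rests on the few male reads: the log2 difference was 14.29 without male pool 4 and 12.74 without male pool 6.

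Eif2s3x stood at 47.7, 44.4 and 45.0 FPKM in male pools 4, 5 and 6 and 72.1, 69.9 and 70.2 in female pools 4, 5 and 6. The groups did not overlap, and the log2 difference was 0.64 ± 0.06 (SE) with an adjusted p of 0.0230 by edgeR. The call was lost without male pool 4, male pool 6 or any 1 female pool, with adjusted p by edgeR of 0.0990 to 0.262 and log2 differences of 0.62 to 0.67. It was also lost with the replicate number as a block, at an adjusted p of 0.594 by edgeR.

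Other X-linked genes known to escape silencing did not pass the test. Kdm6a, a histone demethylase, was 8.24, 9.48 and 7.95 FPKM in male pools 4, 5 and 6 and 14.4, 13.0 and 14.8 in the female pools, a log2 difference of 0.73 ± 0.10 (SE) with an adjusted p of 0.223 by edgeR. Its pools did not overlap between the sexes. Kdm6a passed with a term for the mt-Nd6 set, at an adjusted p of 0.00106 by edgeR, and without male pool 5, at 0.0453 by edgeR. Kdm5c differed by 0.27 ± 0.07 and Ddx3x by 0.46 ± 0.16 on the log2 scale (SE), each with an adjusted p of 0.902 by edgeR. Ddx3x held 143 FPKM in male pool 5 and 131 in female pool 5, so the sexes overlapped. Without overlap between the sexes were 1516 of the 15092 genes (10%).

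**Figure D5:**
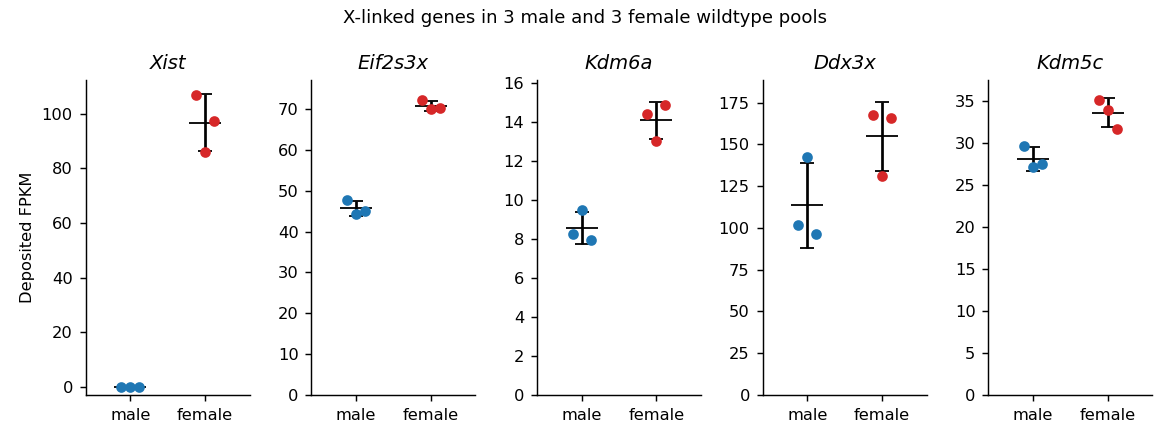
FPKM of 5 X-linked genes in the 3 male and 3 female wildtype pools (points), with the mean and SD as bars. Xist separates the sexes fully, Eif2s3x, Kdm6a and Kdm5c have no overlap, and the ranges of Ddx3x overlap.

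The Y-linked counterparts were read in the table of males. Ddx3y held 30.9, 56.3 and 29.2 CPM in male pools 4, 5 and 6, Uty 18.3, 34.0 and 19.9, Kdm5d 40.3, 45.7 and 42.8 and Eif2s3y 28.0, 40.0 and 26.3. Male pool 5 was the highest for all 4.

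Of the retinal marker lists, 0 members were called between the sexes, beside 0.0133% of all genes tested, so the count shows nothing particular to these lists. Proliferation genes had the higher mean in females for 19 of 24 members, against 48.6% of all genes tested, and their summed FPKM was 1387, 1374 and 1389 in male pools 4, 5 and 6 and 1463, 1484 and 1461 in the female pools. These sums did not overlap, beside 10% of single genes tested, and the median member differed by 0.09 on the log2 scale. Glycolysis and hypoxia genes had the higher mean in males for 16 of 16 tested members, with a median difference of -0.13, and 0 were called. Their sums overlapped, at 4365, 4469 and 4486 FPKM in the male pools and 4054, 4418 and 4153 in the female pools. Both lists come from 27, and other lists leaned as well. Neuronal cytoskeleton and growth genes had the higher mean in males for 17 of 20 and ciliary margin markers for 11 of 14. Mitochondrial transcripts had it in females for 11 of 12. Members of a list are not independent of each other, so these counts are not replicates. The pools rich in mt-Nd6 comprise 1 male and 2 female pools, and the part of that imbalance in these differences was not tested.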

How the data were processed

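Raw read counts per gene and library were deposited by the authors, with no normalization. Aligner, counter and build are taken from the submitters' processing notes: STAR 2.5 on mm10, then HTSeq 0.6.1, with CASAVA for base calls and DESeq2 for the authors' own tests. For the strand setting and annotation release nothing was stated in the sources used here, so overlapping genes on opposite strands cannot be told apart. The deposited FPKM values equal the counts over the listed gene length and a total slightly above the sum of the listed counts, as recomputed here. The gene length, in bases, is another column deposited by the authors.

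CPM values are counts over the library total, without TMM scaling. Variation used log2 CPM with TMM sizes. Sexes were compared with edgeR 4.0.16 in R 4.3.3 by the two-sided quasi-likelihood test on the counts of the 6 wildtype pools, after filterByExpr, adjusted after Benjamini and Hochberg, and called at 0.05. It was checked on simulated counts. DESeq2 1.42.0 and limma 3.58.1 were alternatives. Same-numbered male and female pools had deviations correlated at -0.07, -0.30 and 0.08, and differently numbered ones at -0.31 to 0.32. The mt-Nd6 sets fall on different numbers in males and females. These correlations therefore cannot tell whether the replicate numbers pair the pools.

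The 28 gene lists and the members were chosen with earlier results of these data known. Named genes are the 25 highest in mean FPKM, the 4 leading and the defining members of a list, the 25 most and 10 least variable genes, called genes and X-linked and Y-linked lists. Predicted genes and pseudogenes are counted but not given by value. Capn3 follows from this rule, and Ccne2, like the look at GC content, was chosen after its values were seen. Promoters are from RefSeq (GRCm38.p6). Y-linked values come from the table of males, whose counts equal those of the table of both sexes for all 18958 shared genes. Intervals of counting error do not cover differences between embryos. A few named genes are not reported here.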

Additional observations from a re-analysis of the deposited data

Results flagged for a closer look

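In each of the comparisons below, 1 pool lay far from the other 5, judged by its gap to the nearest pool over the whole range (Dixon's limit of 0.625 for 6 samples). Of 69 values examined 11 were singled out. Chance singles out about 1 in 20 groups, but that rate does not apply to the crystallin genes and Capn3, which were examined because they vary most. Male pool 5 accounted for 10 of them. Its summed lens level was 831 FPKM, with 223 in the next pool. In CPM it held 355 of Cryaa, 147 of Cryba1, 117 of Crybb3 and 95.8 of Crybb1. It held 35.7 CPM of Cryba4, 32.1 of Cryba2, 23.9 of Cryge and 19.8 of Crygd. Capn3, a protease outside the lens list, stood at 36.8 CPM there and at 10.5 in the next pool. The eleventh was Stmn1, at 1499 FPKM in male pool 6 and 1354 in the next. The lens genes are expressed in 1 tissue and are not independent of each other.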

How the results depend on the processing

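Genes called between the sexes numbered 2 and became 10 with DESeq2, 4 with a term for the mt-Nd6 set, 1 over all 12 libraries with 4 group means and 1 to 3 with 1 pool left out. With the replicate number as a replicate block, 1 gene was called, Xist. limma voom, no filter on low counts and library totals without TMM each gave 2. Kdm6a was called by DESeq2, with the mt-Nd6 term and without male pool 5. Among the 10 by DESeq2 were also the ribosomal protein genes Rpl23a, Rpl35 and Rps29. The cause of these shifts was not tested. Genes at the level threshold in all pools fell from 11957 to 6236 at 10 FPKM. The read share of the highest 25 genes, 6.22% on average, was 5.88% without mitochondrially encoded genes and 12.1% as a share of the FPKM total. Genes over 2-fold, 276, became 1113 at a minimum of 1 CPM, 117 at 20 CPM and 47 within each of the 3-pool sets. With a GC trend removed, an alternative chosen after seeing the data, 153 were over 2-fold, 136 of them among the 276. Leaving out 1 pool gave 228 to 253, and a range over fewer pools tends to be smaller whichever pools are kept. Of 216 recomputed list sums, 0 moved by 1 SD or more, which for lens is a wide SD. Most of these sums left out 1 of the 6 pools, which cannot move a mean by 1 SD. The count therefore does not show how far the sums depend on single pools. For genes from 5 to 20 CPM the median SD between pools was 0.18 on the log2 scale, where counting error alone gives 0.091.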
